A study of Mus musculus with 2 samples.

Results

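The genes described here are the Rab GTPases, the SNARE proteins and the clathrin, adaptor and sorting proteins of endosomes, as measured in mouse 3T3 fibroblasts. They were chosen by gene symbol alone, without any measured value: every probe set of the MG_U74Av2 array that the platform annotation maps to exactly 1 gene whose symbol begins as those of the Rab, Gdi, Rabac, Rabggt, Stx, Vamp, Snap, Vps, Snx and Ap1 to Ap4 families do, or that is Nsf, Napa, Napb, Napg, Ykt6 or a clathrin chain. This gave 159 probe sets of 122 genes, out of 10833 probe sets of 8251 genes. The study held 2 samples of total RNA, each on 1 array. Its design text also speaks of 2 replicates, and no source used here says which samples these would be. In the fibronectin group, cells in serum-free DMEM spent 30 min on a coat of fibronectin (10 µg/ml), a matrix glycoprotein that integrins bind. In the suspension group, cells in the same serum-free medium were held unattached. The labels present the comparison as a way to find genes that fibronectin induces, with MAPK signalling in view. With 1 array per group there is no replicate check and no p-value, so "higher" and "lower" describe these 2 arrays.

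Rab proteins are small GTPases that switch between a GTP-bound form on a membrane and a GDP-bound form that the protein GDI can lift off into the cytosol, and each marks its own compartments. SNAREs are the membrane proteins that zip together to fuse a vesicle with its target, after which the ATPase NSF and its SNAP adaptors pull them apart. Clathrin and the AP adaptors gather cargo into budding vesicles, and on endosomes the retromer complex and sorting nexins send cargo back while ESCRT complexes send it on to the lysosome. In spreading fibroblasts these routes take up integrins from the surface and return them to it.

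Signals are MAS5 intensities on a linear scale, brought to the same trimmed mean in both arrays. A floor of 490, the mean of the arrays' 40th percentiles, was set on low signals, and genes that reached it in 1 array or both are called measured. Ratios with 1 signal below the floor are lower limits of the fold difference, given here as "at least". Genes covered by more than 1 probe set were read from the brightest by mean log2 signal, taken after the floor. The 34 negative control probe sets, bacterial, yeast and antisense, had a 95th percentile of 1874 on fibronectin and 1403 in suspension. Of the 9 fibroblast markers 8 reached the floor in both arrays, while Thy1 did not, and the Vim signals of 686 on fibronectin and 1421 in suspension lay near those of negative controls. Their summed signal was 225306 on fibronectin and 155535 in suspension.

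Promoter sequence is shown for the members with a CLEAR box, searched for as CACGTG with GT before it and AC after it, because this palindromic element of lysosomal genes is a feature that the choice by symbol did not use. Of the 122 genes, 103 matched the RefSeq promoter table of GRCm38.p6, which holds 250 bases before and 50 after a gene start. The 10 letters were found, with both strands covered since the box is its own reverse complement, in 5 of the 103 genes (4.85%), against 100 of all 27025 genes in the table (0.370%). The shorter E-box CACGTG, which lies inside the longer box, was found in 16 of the 103 genes (15.5%), against 8.09% of all genes. Sequences are given 5′ to 3′ on the strand of the gene, with the box in capitals and up to 45 bases on each side of it, of which none past the gene start are shown. Counted from the gene start, the first base of the box is at -97 in Rab5a, -32 in Rab21, 0 in Rab24 and -20 in Vps16, and in Vps26a at -153 from 1 start and -184 from another.
Rab5a, chr17:53479092-53479191, plus strand: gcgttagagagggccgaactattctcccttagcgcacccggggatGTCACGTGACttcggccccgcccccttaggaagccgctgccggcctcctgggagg
Rab21, chr10:115315592-115315668, minus strand: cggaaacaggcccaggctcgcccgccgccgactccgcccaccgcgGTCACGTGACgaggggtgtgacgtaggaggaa
Rab24, chr13:55321971-55322025, minus strand: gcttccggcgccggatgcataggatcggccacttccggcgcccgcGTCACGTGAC
Vps16, chr2:130424255-130424319, plus strand: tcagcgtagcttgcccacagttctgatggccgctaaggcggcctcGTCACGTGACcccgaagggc
Vps26a, chr10:62486697-62486796, minus strand: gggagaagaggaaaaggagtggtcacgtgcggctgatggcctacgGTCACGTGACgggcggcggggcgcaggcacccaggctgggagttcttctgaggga
Vps26a, another start, chr10:62486935-62487034, minus strand: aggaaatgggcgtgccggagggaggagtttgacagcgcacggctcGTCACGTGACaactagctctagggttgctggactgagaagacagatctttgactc

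The log2 ratios of these 5 genes, fibronectin over suspension, were 0.18 for Rab5a, 0.78 for Rab21, 0.01 for Rab24, a bound of 1.05 for Vps16 and 0.06 for Vps26a. The signs of Rab5a, Rab24 and Vps26a turned with scaling to the hybridisation spikes. A match of these letters is a description of the window and not evidence of a bound factor.

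Most of the trafficking genes had similar signals on fibronectin and in suspension. Of the 122 genes 106 were measured, and 76 of these (71.7%) lay within 1.5-fold of each other in the 2 arrays, against 61.6% of all 6385 measured genes. For 4 of these 76, namely Rab33a, Ykt6, Vps37a and Ap3m1, that ratio is a lower limit. Higher by 2-fold or more on fibronectin were 4 members (3.77%), where the background was 5.81% of all measured genes, and 5 members (4.72%) were at least 2-fold lower, where the background was 9.27%. At 1.5-fold, 15 members were higher and 15 lower, which is 14.2% each, against 15.9% and 22.6% of all measured genes. The median log2 ratio of the members was 0.03, and that of all measured genes -0.09. With scaling to the spikes these medians were -0.45 and -0.51, and under median scaling 0.24 and 0.11, so the sign of the members' median was not settled. These scalings move nearly all genes alike, so a sign that turns under them marks a ratio smaller than that common shift. The middle 50% of members spanned 0.62 on the log2 scale, against 0.89 for all measured genes.

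**Figure D1:**
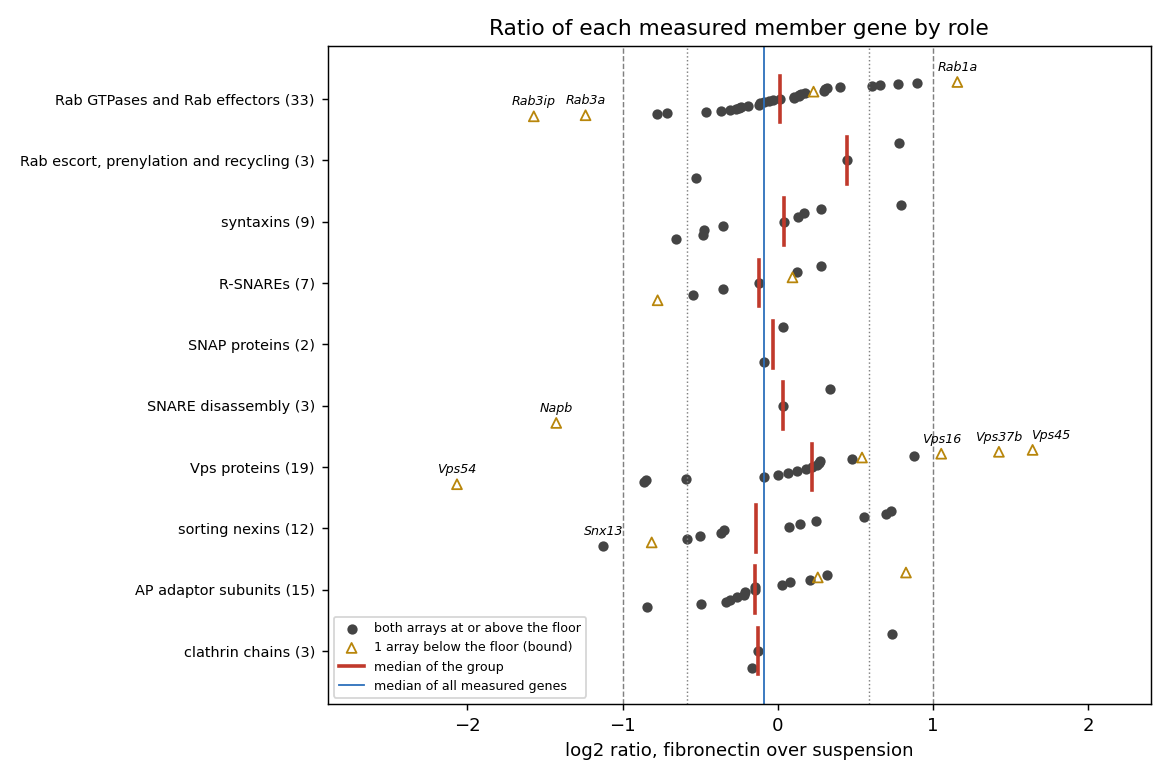
Each point is 1 measured member gene, placed by its log2 ratio of fibronectin over suspension (x axis) within its role group (y axis, number of measured genes in brackets). Dashed lines mark 2-fold and dotted lines 1.5-fold, triangles are bounds, red bars are group medians and the blue line is the median of all measured genes, -0.09. Of the 9 labelled genes beyond 2-fold, 8 are bounds.

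The brighter members were those with the closer signals. All measured genes were split by mean log2 signal, taken after the floor, into 3 classes of equal size, named lowest, middle and highest. Of the 51 members in the highest class, 46 (90.2%) lay within 1.5-fold, against 72.6% of all genes of that class, and 0 passed 2-fold, where the background was 6.34%. In the middle class 22 of 35 members (62.9%) lay within 1.5-fold, against 56.4%, and 1 passed 2-fold, where the background was 20.1%. In the lowest class, 8 of 20 members (40%) lay within 1.5-fold, against 55.7%, and 8 passed 2-fold, where the background was 18.8%. Of these 20 members, 14 (70%) had 1 array below the floor, as did 69.8% of all genes of that class, and such genes counted as measured only through the array where they were high. Among the 91 members at or above the floor in both arrays, 0 were at least 2-fold higher, where the background was 4.68%, and 1 at least 2-fold lower, where the background was 6.47%. The members' median log2 ratio was 0.17 in the lowest class, against -0.15 for all genes of that class. In the middle class it was 0.00 against -0.20, and in the highest class 0.01 against 0.04. Of the 30 members at least 1.5-fold apart, 6 had signals above the 95th percentile of negative controls in both arrays, a share of 20% against 22.3% of all genes that far apart: Rab10, Rab34, Rab12, Rabac1, Cltc and Snx2.

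**Figure D2:**
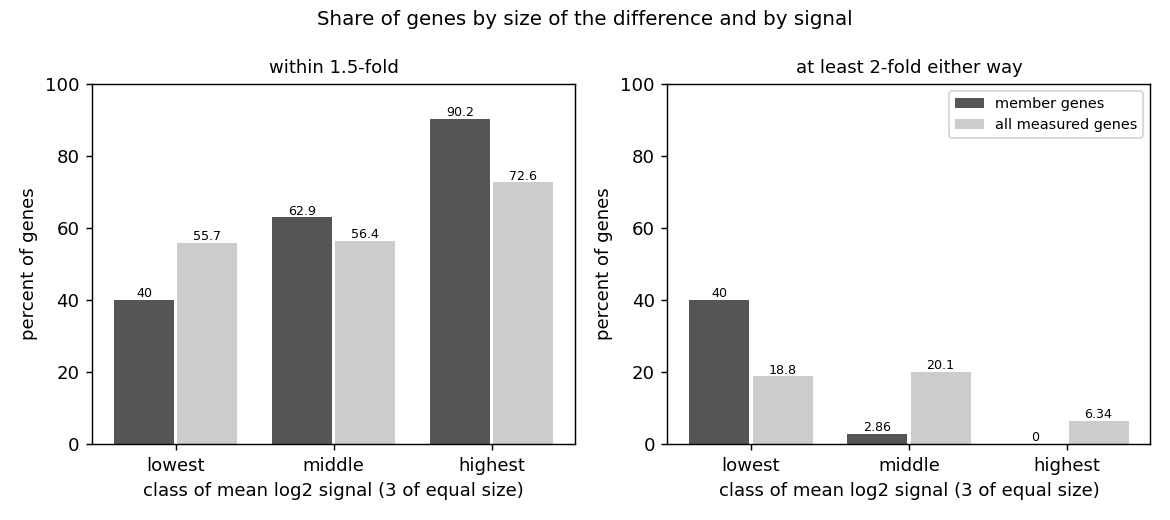
Bars give the percent of genes (y axis) within 1.5-fold (left panel) and at least 2-fold apart in either direction (right panel), in the lowest, middle and highest class of mean log2 signal (x axis), for member genes (dark) and all measured genes (light). Members in the highest class were within 1.5-fold in 90.2% of cases, and those in the lowest class in 40%.

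Among the Rab GTPases and the proteins named after them, 33 of 39 genes were measured, with 17 ratios above 0 and 16 below and a median of 0.01. Rab10, which guides vesicles to the plasma membrane, had a signal of 2789 on fibronectin and 1497 in suspension, 1.86-fold higher. Its other probe set read 1732 and 1474, a log2 ratio of 0.23. Rab34, a Golgi-linked Rab with roles in macropinocytosis and cilia, had 5373 on fibronectin and 3411 in suspension, 1.58-fold higher. Both stayed above 0 under every alternative run, down to 0.42 for Rab10 and 0.18 for Rab34 with scaling to the spikes. Rab12, which works between recycling endosomes and lysosomes, was 1.64-fold lower, with 2423 on fibronectin and 3982 in suspension. Rab1a, needed for transport from the endoplasmic reticulum to the Golgi, was at least 2.23-fold higher, with 1091 on fibronectin against 476, below the floor, in suspension. Both of its signals lay under the 95th percentiles of the negative controls.

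The 13 Rabs listed here for early, recycling and late endosomes differed little. This list was made by hand with earlier results of these data known. It left out Rab12 (1.64-fold lower), placed above between recycling endosomes and lysosomes, and Rab25 (1.72-fold lower). All 13 listed Rabs reached the floor in each array, and 12 were within 1.5-fold, with a median log2 ratio of 0.10. Of all measured genes 61.6% were within 1.5-fold, and 66.0% of those above the floor in both arrays. A list made this way cannot show that closeness is a trait of endosomal Rabs. The exception among the 13 was Rab21, a Rab that binds integrin tails. It had 1272 on fibronectin and 743 in suspension, 1.71-fold higher from signals below the 95th percentiles of the negative controls. Rab5a, Rab5b and Rab5c, the early endosome Rabs, had log2 ratios of 0.18, -0.19 and 0.32. For the rapid recycling Rabs, Rab4a had 0.40 and Rab4b 0.10. The slow recycling Rab11a had 3604 on fibronectin and 2926 in suspension (0.30), and Rab11b had 5768 and 6237 (-0.11). The other probe set of Rab11a had a log2 ratio of -0.15. None of these 7 kept its sign under every scaling: those above 0 turned negative with scaling to the spikes and the others positive under median scaling.

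Rab7, the late endosome Rab, was read differently by its probe sets. The one used had 3423 on fibronectin and 4134 in suspension, a log2 ratio of -0.27, while the other had 4542 and 1252, 3.63-fold higher. The ID of that other probe set carries the array maker's suffix for probes shared by related transcripts. The direction of Rab7 was thus not settled by these arrays. Rab31, another endosomal Rab, had 3443 on fibronectin and 3661 in suspension, and 1622 and 1105 in its other probe set, a log2 ratio of 0.55. Rab33b, a Golgi and autophagy Rab, had 1312 on fibronectin and 1692 in suspension, and 0.09 on the log2 scale in its other probe set.

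The Rabs grouped here under the secretory route, Rab1a, Rab10, Rab12 and Rab34 among them, had 12 measured genes of 14, with 6 ratios above 0, 6 below and a median of 0.01. Of these, 4 were higher (Rab1a, Rab3d, Rab10 and Rab34) and 2 lower (Rab3a and Rab12) by 1.5-fold or more. The background was 15.9% higher and 22.6% lower of all measured genes. Like the endosomal list, this one was made by hand with earlier results of these data known. Rab1a and Rab3a counted as measured only through the array where they were high. Rab3ip (Rabin8), the exchange factor that activates Rab8, is not counted in this group. It was at least 2.97-fold lower, with 234 on fibronectin and 1456 in suspension. Its other probe set gave the same sign, 2.09-fold lower with 531 and 1110. With the floor at the 20th percentile and with no floor, that other probe set was the brighter, and the log2 ratio of Rab3ip was -1.06. Rab3a, known from synaptic vesicle release, was at least 2.36-fold lower, with 489.6 on fibronectin, just under the floor, and 1156 in suspension. Its relative Rab3d went the other way, 1239 on fibronectin and 813 in suspension (1.52-fold higher). Rab25, a Rab of epithelial cells that is also outside this group, was 1.72-fold lower, with 988 and 1695. Of the 10 neural markers 3 reached the floor in each array, with Snap25, Syp and Syt1 below it in both, and their summed signal was 11704 on fibronectin and 10944 in suspension. The 5 epithelial markers summed to 2647 and 3822. Their part in these ratios was not tested. Rab8a and Rab18 were bright and near equal, with 5636 on fibronectin and 5127 in suspension for Rab8a, and 5154 and 5602 for Rab18.

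The proteins that escort and lipid-modify Rabs showed both directions in 3 measured genes. Rabac1 (PRA1), a membrane protein that frees Rabs from GDI, had 13116 on fibronectin and 7629 in suspension, 1.72-fold higher. Gdi2, which extracts GDP-bound Rabs from membranes, had 7826 and 5741, a log2 ratio of 0.45. Rabggtb, the catalytic subunit of the geranylgeranyl transferase that attaches the lipid anchor, had 1985 and 2859, a log2 ratio of -0.53. All of these signals lay above the negative controls' 95th percentiles. Gdi2 turned to below 0 with scaling to the spikes, whereas Rabac1 had 0.31 and Rabggtb stayed negative.

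**Figure D3:**
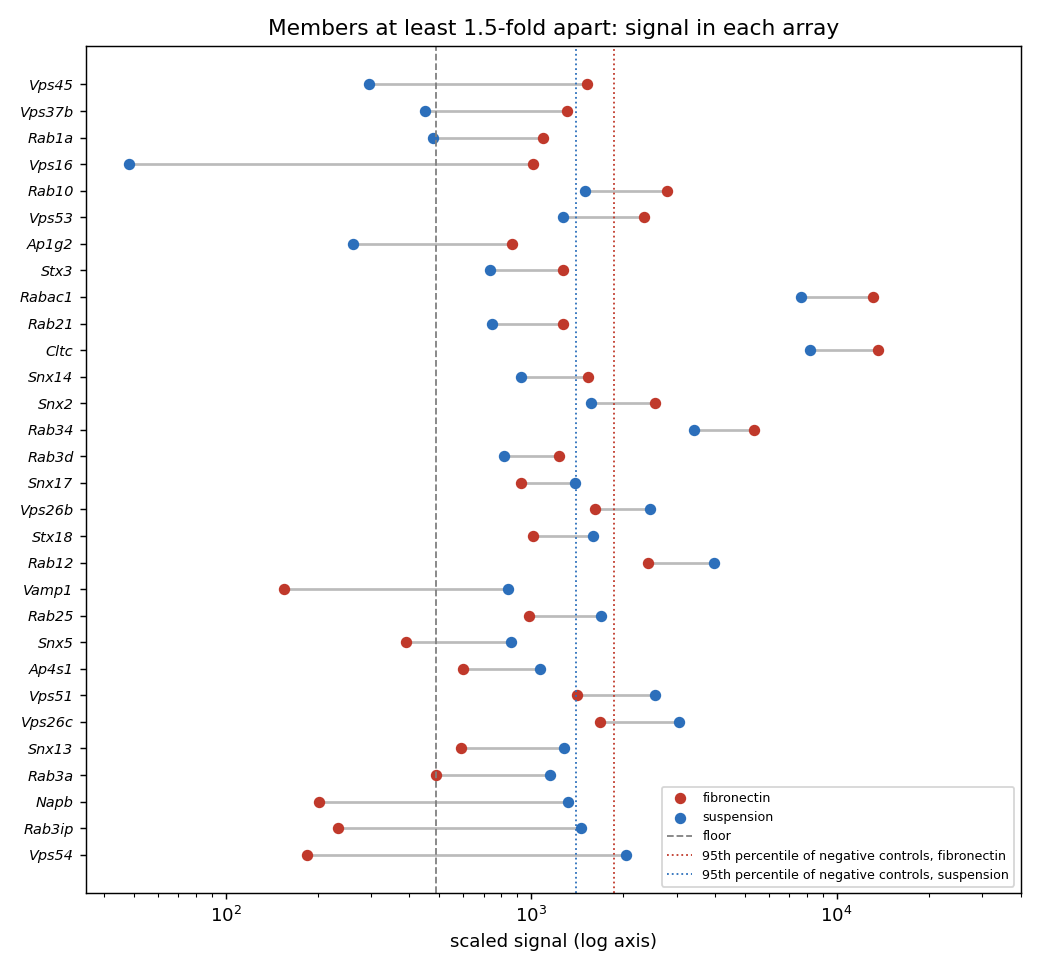
Scaled signals (x axis, log scale) of the 30 member genes at least 1.5-fold apart (y axis, highest ratio at the top), on fibronectin (red) and in suspension (blue). The dashed line is the floor and the dotted lines are each array's 95th percentile of negative controls. In 6 genes each signal lies above the line of its own array.

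Syntaxins, the SNAREs that mark target membranes, had a median log2 ratio of 0.04 over 9 measured of 10 genes. Stx3, a plasma membrane syntaxin, had 1273 on fibronectin and 736 in suspension, 1.73-fold higher. Stx18, of the endoplasmic reticulum, had 1012 and 1594, 1.57-fold lower. The Golgi syntaxin Stx5a had 4910 and 6866 (log2 ratio -0.48), the endosomal Stx7 2169 and 3018 (-0.48) and the endosomal Stx12 2897 and 3699 (-0.35). The fibroblast surface syntaxin Stx4a had a log2 ratio of 0.04 and Stx6, of the trans-Golgi network, 0.17, both of which turned negative with scaling to the spikes. The brain syntaxin Stx1a did not reach the floor.

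The vesicle SNAREs, VAMPs and Ykt6, had 7 measured genes of 8. The 5 with both signals at or above the floor were all within 1.5-fold. Vamp8, of late endosomes, had 8166 on fibronectin and 10442 in suspension (log2 ratio -0.35), with -0.01 in its other probe set. Vamp4, of the trans-Golgi network, had 1146 and 1677, with log2 ratios of -0.55 and -0.43 in its probe sets. Vamp3 (cellubrevin), the recycling endosome SNARE that takes part in integrin return, had 973 and 893, a log2 ratio of 0.12. Vamp2 had 1008 on fibronectin and 830 in suspension (0.28), and its other probe set was at least 1.09-fold lower. Vamp1, mainly known from neurons, was at least 1.71-fold lower, with 155 on fibronectin and 838 in suspension, and its log2 ratio was -2.43 with no floor. Ykt6, a SNARE of several membranes, was at least 1.07-fold higher, with 523 and 240, and had 1.12 with no floor. The plasma membrane partner Snap23 had 935 and 995, a log2 ratio of -0.09, and Snap47 had 2544 and 2487, a log2 ratio of 0.03.

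The machinery that takes SNARE complexes apart had similar signals in its 2 broadly used components. Nsf, the ATPase, had 735 on fibronectin and 718 in suspension, a log2 ratio of 0.04. Napa (alpha-SNAP) had 3299 and 2610, a log2 ratio of 0.34. Both turned negative with scaling to the spikes. Napb (beta-SNAP), known from brain, was at least 2.69-fold lower, with 203 on fibronectin and 1317 in suspension, below the 95th percentile of negative controls in each array.

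Of the 9 members beyond 2-fold, 4 were Vps genes, which is 4 of 19 measured where the background was 15.1%. Log2 ratios were above 0 in 14 of the 19, against 45% of all measured genes, and the median of the 19 was 0.22. In 5 of the 19, 1 array was below the floor, so the array that reached it fixed the sign. It was fixed above 0 in Vps16, Vps37a, Vps37b and Vps45, and below 0 in Vps54. The 4 Vps genes beyond 2-fold are all among these 5, so these counts cannot show a trait of the Vps genes. Only 6 of the 19 Vps genes were above 0 under spike scaling, which gave them a median of -0.25 and all genes -0.51. Vps45, a Sec1/Munc18 protein that guides SNAREs of endosomes, was at least 3.12-fold higher, with 1527 on fibronectin and 294 in suspension. Vps37b, an ESCRT-I subunit, was at least 2.68-fold higher, with 1314 and 449. Vps16, a core subunit of the HOPS and CORVET tethers, was at least 2.07-fold higher, with 1016 and 48.5. In these 3 genes the suspension signals were under the floor, and the fibronectin signals were under the negative controls' 95th percentile of 1874.

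Subunits of the same Vps complex did not all go the same way. In GARP, which tethers vesicles that return from endosomes to the Golgi, and its relative EARP, Vps54 was at least 4.19-fold lower, with 184 on fibronectin and 2052 in suspension. Vps51 was 1.80-fold lower, with 1414 and 2544, while Vps53 was 1.84-fold higher, with 2348 and 1277. Vps52 had a log2 ratio of -0.09. Vps51 was the only 1 of the 30 members that stayed beyond 1.5-fold under all 9 alternatives. Rabac1, Rab12, Vps26c and Vps54 did so under 8. Members too dim for the higher floors could not pass all 9. Scaling to the spikes lowers nearly all ratios, so genes higher on fibronectin were less able to pass. The fibronectin signal of Vps51 lay under that array's negative control 95th percentile of 1874, and the suspension signal of Vps53 under that of 1403. Vps54 counted as measured only through the suspension array, which fixed its sign. With the floor at the negative controls the log2 ratio of Vps54 was -0.32. In the retromer core, Vps35 had 9221 on fibronectin and 7691 in suspension (log2 ratio 0.26), Vps26a had 4041 and 3867 (0.06) and Vps29 had 0.00, all of which turned negative with scaling to the spikes. The other retromer arrestin, Vps26b, was 1.51-fold lower, with 1624 and 2449. Vps26c, of the retriever complex, was 1.82-fold lower, with 1677 and 3053, but had 0.20 in its other probe set. All 4 measured ESCRT-I genes were above 0, where the background was 45%. Vps28 had 5944 on fibronectin and 4263 in suspension (0.48), and Vps37c had 0.18. Vps37a was at least 1.46-fold higher, with 713 on fibronectin and 221 in suspension. Like Vps37b, it counted as measured only through the fibronectin array, which fixed its sign. Vps37c turned negative with scaling to the spikes. Vps4a and Vps4b, the ATPases that end ESCRT action, had 0.22 and 0.27, and both turned negative with that scaling.

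Sorting nexins had 6 ratios above 0 and 6 below in 12 measured of 14 genes. Snx13 was 2.18-fold lower, with 588 on fibronectin and 1282 in suspension, and its relative Snx14 was 1.66-fold higher, with 1533 and 926. Both belong to the nexins with an RGS domain. Snx17, which binds integrin beta-1 tails and keeps integrins from degradation, had 927 and 1392, a log2 ratio of -0.59, and 1.67-fold lower in its other probe set. The signals of these 3 genes in the probe sets used lay below the negative controls' 95th percentiles. The early endosome nexin Snx3 had 14886 on fibronectin and 12528 in suspension (log2 ratio 0.25), and Snx9, which shapes clathrin-coated pits, had 7375 and 9486 (-0.36). Snx6, of the retromer-linked nexins, had 3957 and 3769 (0.07). Snx3 and Snx6 turned negative with scaling to the spikes. Signs differed between probe sets in 3 nexins. Snx2 had 2553 on fibronectin and 1573 in suspension, 1.62-fold higher, against log2 ratios of -0.23 and a bound of -0.15 in its others. Snx5 was at least 1.76-fold lower, with 389 and 860, and at least 1.72-fold higher in another probe set, with 843 and 212. Snx12 had 2131 and 1451 (0.55), and -0.16 in its other probe set.

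**Figure D4:**
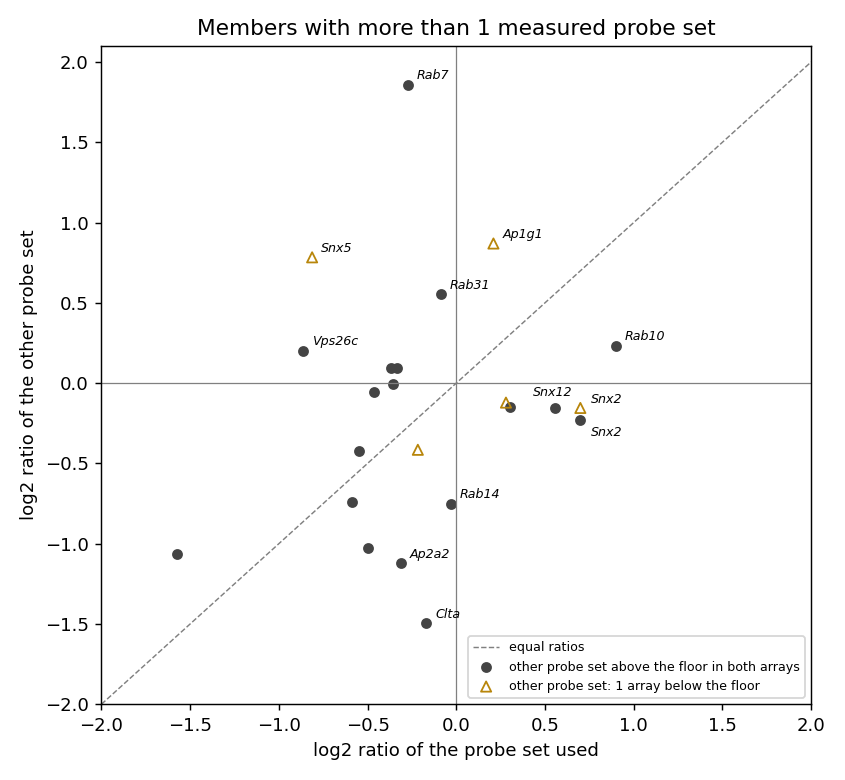
Each point is a probe set of a member gene, with the log2 ratio of the probe set used for that gene on the x axis and its own on the y axis. Points on the dashed line would have equal ratios, and triangles are probe sets with 1 array below the floor. In 12 of 23 pairs the signs were equal, and Rab7 (-0.27 and 1.86) lay farthest from the line.

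Clathrin and its adaptors were measured in 18 of 20 genes. Cltc, the clathrin heavy chain, had 13647 on fibronectin and 8183 in suspension, 1.67-fold higher. Its ratio stayed above 0 under every alternative, down to 0.26 with scaling to the spikes. The light chains were closer in the 2 arrays, with 10669 on fibronectin and 11999 in suspension for Clta (log2 ratio -0.17) and 1037 and 1131 for Cltb (-0.13). The other probe set of Clta was 2.82-fold lower, with 506 and 1427, and the mean of both gave a log2 ratio of -0.83. Here the ID of the probe set used carries the suffix for probes shared by related transcripts. Clta turned to above 0 under median scaling, and Cltb under median scaling, quantile normalization and loess.

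In AP-2, the adaptor of the plasma membrane, 3 of 4 measured subunits were below 0, as were 3514 of all 6385 measured genes. The AP-2 median log2 ratio was -0.26, against -0.09 for all genes, and -0.06 against 0.11 under median scaling. Ap2m1, its cargo-binding subunit, had 6935 on fibronectin and 9781 in suspension, a log2 ratio of -0.50, and was 2.04-fold lower in its other probe set. Ap2a2 had -0.31, and was 2.18-fold lower in its other probe set, with 1752 and 3811. The 5 measured AP-1 subunits, of the trans-Golgi network and endosomes, had a median of 0.21, which was -0.26 with scaling to the spikes. Among them Ap1b1 had 6128 and 7122 (-0.22), and Ap1m1 had 1857 and 2343 (-0.34), with 0.10 in its other probe set. Ap1g2 was at least 1.77-fold higher, with 868 and 262, and its log2 ratio was 1.73 with no floor. The AP-3 subunits, which sort cargo to lysosomes, had a median of -0.14. Ap3b1 had 5077 and 4994, and Ap3m1 was at least 1.20-fold higher, with 585 and 303, and had a log2 ratio of 0.95 with no floor. Ap4s1, of AP-4, was 1.79-fold lower, with 597 on fibronectin and 1072 in suspension.

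Probe sets of the same gene give the best view of error that 1 array per group allows. In the 22 members with more than 1 measured probe set, the ratios of 23 pairs differed by a median of 0.64 on the log2 scale, against 0.60 over 1350 pairs of all genes. The SD of a single ratio that follows from these differences was 0.61 for members and 0.69 for all genes, if the probe sets of a pair err equally. The other probe set is by rule the dimmer one after the floor is set, and some of its ratios are bounds. This SD is thus a rough guide and not the SD of the ratios used here. A ratio of 1.5-fold, 0.58 on the log2 scale, is smaller than it. Such pairs share RNA and array and are not replicates.

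A fixed list gave 76 other membrane traffic genes on the array, whose ratios were alike in size to those of the members. It held further SNAREs and SNARE regulators, Rab effectors and regulators, Arf GTPases and ESCRT genes. Clathrin adaptor, tether, dynamin and cargo receptor genes were also on it. Of 60 measured, 2 were higher on fibronectin and 4 lower by 2-fold or more, where the background was 5.81% and 9.27%, and 43 (71.7%) were within 1.5-fold. Their median log2 ratio was -0.12. Gga1, a clathrin adaptor of the Golgi, was at least 3.81-fold higher, with 1866 on fibronectin and 363 in suspension. Cyth2, an activator of Arf GTPases, had 1426 and 679, a log2 ratio of 1.07, and Igf2r, the receptor that carries hydrolases to lysosomes, had 3717 and 1923, 1.93-fold higher. The lowest was Pacs1, a sorting connector, with 1216 and 2956, 2.43-fold lower. Stxbp2, a syntaxin-binding protein, had 491 and 1141, 2.32-fold lower, but was at least 1.68-fold higher in its other probe set. The dynamin gene Dnm2, whose product cuts clathrin-coated vesicles from the membrane, had 892 and 1863, 2.09-fold lower.

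The 16 members that did not reach the floor in either array included the neuronal Snap25 and Snap91, the epithelial Rab17 and, of broadly expressed genes, Ap2s1, Rab35, Vamp7 and Rabggta. A signal below the floor in these arrays does not show that a transcript is absent. By symbol the list also took in genes with other known roles, among them the chromatin protein gene Vps72 (log2 ratio 0.25) and the opposite-strand transcripts Rab26os (0.30) and Rab10os, which was below the floor.

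**Figure D5:**
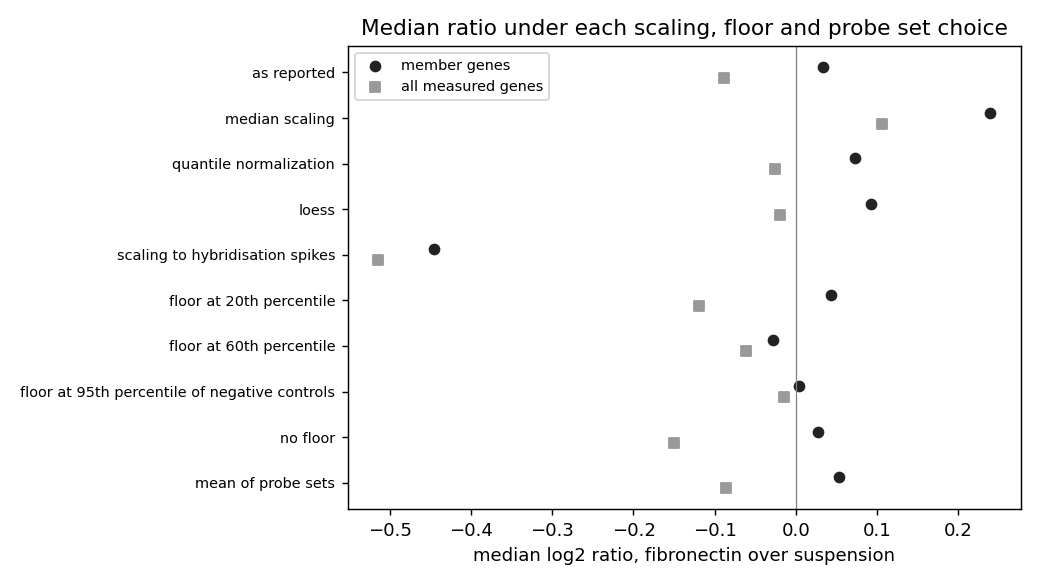
Median log2 ratio of fibronectin over suspension (x axis) of the member genes (circles) and of all measured genes (squares), for the values as reported and for each alternative scaling, floor or choice of probe set (y axis). The members' median lies above that of all genes in each row, and both fall below 0 with scaling to the hybridisation spikes, at -0.45 and -0.51. Every row reads the same 2 arrays. In the highest class of signal, with the values as reported, the members' median lay below that of all genes, at 0.01 against 0.04.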

How the data were processed

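Per the labels' protocols, total RNA came from RNeasy columns, was brought to 2.5 µg/µl and was hybridised to 1 MG_U74Av2 array per group. The deposited values are linear intensities by probe set, and the submitters' processing notes name MAS5 as the tool. No source used here gives its version or the target of its scaling. Chip lot, operator, fluidics module and scan day differed between the arrays, per the file headers, and cannot be told apart from the group. Whether both samples came from 1 culture is not given.

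Each array was scaled by its 2% trimmed mean over 12422 probe sets that are not controls (factors 1.00 and 0.999), floored at a signal of 490 and turned to log2, and the ratio was fibronectin minus suspension. No test was possible. All 122 member symbols matched RefSeq (GRCm38.p6) by gene ID. Values are given for members at least 1.5-fold apart, the 3 brightest of each role group, and members whose probe sets had opposite signs over 0.3 apart. Further members, of the same families and complexes, with other known roles or read as lower limits, were added after their values were seen. Members with a CLEAR box are given too. Members, lists and rules were chosen with earlier results of these data known. The alternatives were median scaling, quantile normalization, loess, 9 hybridisation spikes, floors at the 20th and 60th percentiles and at the negative controls, no floor, and the mean of all probe sets. Of 7 macrophage and blood markers on the array, 3 reached the floor on fibronectin and 2 in suspension; of 4 endothelial markers 0 and 2, of 5 muscle markers 3 and 4, of 5 epithelial markers 3 and 3, and of 2 adipocyte markers 0 and 0. The steps were tested on simulated data. Python 3.11.15, numpy 2.4.6, pandas 2.3.3 and statsmodels 0.14.6 were used.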

Additional observations from a re-analysis of the deposited data

How the results depend on the processing

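The number of members at least 2-fold higher on fibronectin, 4 as reported, was 6 under median scaling and under loess, 2 with scaling to the spikes, and 8 with the floor at the 20th percentile and with no floor. Of all measured genes, 9.33% were that much higher under median scaling, 7.32% under loess and 2.11% with the spikes. With the floor at the 20th percentile this share was 10.7%, and with no floor 11.3%. Measured members numbered 107 under median scaling and loess, 104 with the spikes, 117 with the lower floor and 122 with none. The number at least 2-fold lower, 5 as reported, was 16 with scaling to the spikes, 7 with the lower floor and 8 with no floor. Of all measured genes, 22.1% were that much lower with the spikes, 15.4% with the lower floor and 18.7% with no floor. Both member counts were 0 with the 2 higher floors, at the 60th percentile and at the negative controls, which leave 87 and 65 measured members. The shares of all genes were then 3.43% higher and 3.48% lower at the 60th percentile, and 2.92% and 1.42% at the negative controls. Under the other alternatives both member counts were within 1.5 times. The median log2 ratio of the members was 0.24 under median scaling, -0.45 with the spikes and -0.028 with the floor at the 60th percentile, against 0.11, -0.51 and -0.06 for all genes. For the other membrane traffic genes, counts of higher genes were 4 under median scaling, 1 with the spikes, 0 with the 2 higher floors and 4 with no floor. Counts of lower genes were 2, 9, 2 at the 60th percentile, 1 at the negative controls and 12, with 1 under loess and 11 with the floor at the 20th percentile. The causes were not tested, beyond the fewer genes that a higher floor leaves. Of the 9 members beyond 2-fold, 0 stayed there under all 9 alternatives, and only Vps54 among them was measured under each. Of 106 measured members 51 changed sign under at least 1 scaling, 34 of them only with the spikes, which shift nearly all genes alike, and of the 30 at least 1.5-fold apart only Snx5 did, since another of its probe sets was then the brightest. The signal over background limits most ratios of dim genes. No paired analysis was possible because each group has 1 array.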
